A study of Mus musculus with 8 samples.

Results

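The antigen presentation genes H2-K1, H2-D1, B2m, Tap1, Psmb8, Psmb9, H2-Aa, H2-Ab1, H2-Eb1 and Cd74 were followed in endothelial cells (EC) of the adult mouse heart. They are 10 of the 16791 genes in the count table and were chosen by name as genes of MHC class I, of MHC class II and of peptide processing. All 8 mice were adult Pdgfb-iCreERT2-R26R-Brainbow2.1 animals, in which the Pdgfb promoter drives a tamoxifen-dependent Cre that switches on 1 of several fluorescent (Confetti) reporters in Pdgfb-lineage EC, and all had 1 dose of 150 mg/kg tamoxifen. In the MI group (mice 244, 250, 255 and 256), myocardial infarction was made by tying off the left anterior descending coronary artery 14 days after tamoxifen, and the ventricles were taken 7 days later. The healthy group (mice 227, 228, 239 and 240) had no surgery and was taken at the same 21 days after tamoxifen. The groups therefore differ by the operation as well as by the infarction. Live CD31+ Confetti+ podoplanin- cells were sorted, and 1 10X Chromium 3′ library was made per mouse. Other cells came through the sort, among them a macrophage-like cluster of 1081 cells and a further leukocyte cluster of 255 cells. Genes were measured in gated EC, which are cells with at least 1 UMI (a counted RNA molecule) of the endothelial genes Cdh5 or Kdr and 0 UMIs of the leukocyte gene Ptprc and of the macrophage gene C1qa. This gate held 23017 of 28695 cells, with 1557 to 3287 cells per healthy and 2727 to 3959 per MI mouse.

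MHC class I molecules show peptides from inside the cell to CD8 T cells and are made by nearly all nucleated cells. Their peptides are cut by the proteasome, whose interferon-inducible subunits are encoded by Psmb8 and Psmb9, and are pumped into the endoplasmic reticulum by the TAP transporter, of which Tap1 is a subunit. There they bind a heavy chain (H2-K1, H2-D1) paired with beta-2-microglobulin (B2m). MHC class II molecules (the alpha chain H2-Aa and the beta chains H2-Ab1 and H2-Eb1) show peptides taken up from outside to CD4 T cells, with the invariant chain Cd74 as their chaperone. Class II is made mainly by macrophages, dendritic cells and B cells, while EC can make it under interferon-gamma through the transactivator Ciita.

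The gated cells held the endothelial markers and carried RNA of other cell types, with a small amount of macrophage RNA among it. Their summed level of 6 endothelial markers ranged over 4622 to 5078 CPM (UMIs of a gene per 1000000 UMIs, summed over the cells of a mouse) in the healthy mice, against 4449 to 4689 CPM after MI, although Kdr, 1 of the 2 gate genes, was called lower (864 to 503 CPM; edgeR adjusted p = 0.00146). The 10 macrophage markers, of which C1qa is at 0 by the gate, summed to 18.7 to 92.6 CPM in healthy and 263.5 to 452.3 CPM in MI mice, and all 9 that were tested were called higher after MI, beside 16.9% of all genes tested. Of the 5 dendritic cell markers, Flt3, Itgax, Cd209a and Ccr7 were each at 1.185 CPM or less in every mouse (Itgax at 0 in the healthy and 0.162 to 0.583 CPM in the MI mice), while Zbtb46 stood at 33.95 to 58.1 CPM and was called lower after MI (edgeR adjusted p = 0.00826). The B cell markers summed to 1.501 to 37.6 CPM in healthy and 10.2 to 97.9 CPM in MI mice, with 2 of 3 tested called higher, Cd79a (0.637 to 2.17 CPM; adjusted p = 0.0375) and Ighm (0.815 to 10.6 CPM; adjusted p = 0.00683). B cells make class II too, and the part of free B cell RNA in the class II result was not tested. Of 6 fibroblast markers tested, 3 were called higher and 1 lower by edgeR, beside 16.9% and 16.8% of all genes tested. Col1a1 (1.09 to 23.2 CPM) and Col3a1 (2.003 to 30.2 CPM) were higher (adjusted p = 0.000177 each), as was Dcn (23.75 to 46 CPM; adjusted p = 0.0432). Pdgfra was lower (3.36 to 1.01 CPM; adjusted p = 0.00581). The pericyte markers summed to 144 to 842 CPM in healthy and 150.5 to 366 CPM in MI mice. Of 6 tested, Rgs5 was called lower (256 to 118 CPM; edgeR adjusted p = 0.0412). Of 5 lymphatic markers tested, Prox1 was called higher (0.472 to 2.32 CPM; edgeR adjusted p = 0.013). Gated cells had a median of 2164 UMIs in healthy and 3936 UMIs in MI mice. Part of the healthy cells shared their barcode and most of their UMIs with a cell of another healthy mouse, and are called copies. Among them were 2030 of the 3669 cells of Healthy 228 (55.3%), matched to cells of Healthy 239. A further 301 of the 2750 cells of Healthy 227 were matched to cells of Healthy 228. How the copies arose was not tested. These copies and 2 more were left out. One mouse in each group, Healthy 227 and MI 244, was low in Xist (1.66 and 0.292 CPM, against 995 to 1164 CPM in the others) and held Ddx3y.

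The members other than B2m and Cd74 lie in the MHC region of chromosome 17 (GRCm38). H2-K1 spans 33996017 to 34000347 on the minus strand in 8 exons, and H2-D1 spans 35262730 to 35267499 on the plus strand in 8 exons. H2-Ab1 (34257689 to 34269419, plus strand, 6 exons), H2-Aa (34282744 to 34287823, minus strand, 5 exons) and H2-Eb1 (34305867 to 34316674, plus strand, 6 exons) lie between them. Psmb9 (34181987 to 34187764, minus strand, 6 exons), Tap1 (34187553 to 34197225, plus strand, 11 exons) and Psmb8 (34197721 to 34201454, plus strand, 6 exons) stand side by side. B2m lies on chromosome 2 from 122147686 to 122153083 on the plus strand in 4 exons. Cd74 lies outside both regions and has 9 exons. Over the last 400 bases of the longest coding transcript, where this 3′ assay reads, 0 of 341 stretches of 60 bases were shared with another gene for any member (for the H2 genes, searched among H2 and Gm genes only).

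The promoters of 4 members are shown, 1 each for a class I heavy chain, the light chain, the transporter and class II, because the class I and class II genes differed in whether they were called after MI, and because the start of Tap1 lies beside that of Psmb9. The 250 bases before the start are from RefSeq (GRCm38.p6), used for 8 of the 10 members. H2-Ab1 had no entry, and Cd74 was left out. Capitals mark CCAAT on either strand, the core of the Y box of class I and class II promoters, and GAAA, any 2 bases and GAAA on either strand, a core of the interferon-stimulated response element (ISRE). The H2-D1 stretch is chr17:35262844-35263093 (plus strand), the B2m stretch chr2:122147437-122147686 (plus), the Tap1 stretch chr17:34187306-34187555 (plus) and the H2-Aa stretch chr17:34287824-34288073 (minus).
H2-D1: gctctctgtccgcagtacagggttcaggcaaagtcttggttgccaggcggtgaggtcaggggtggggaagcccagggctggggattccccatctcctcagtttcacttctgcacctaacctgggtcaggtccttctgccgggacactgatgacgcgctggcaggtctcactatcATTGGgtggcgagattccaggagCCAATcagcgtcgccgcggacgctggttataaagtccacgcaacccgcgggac
B2m: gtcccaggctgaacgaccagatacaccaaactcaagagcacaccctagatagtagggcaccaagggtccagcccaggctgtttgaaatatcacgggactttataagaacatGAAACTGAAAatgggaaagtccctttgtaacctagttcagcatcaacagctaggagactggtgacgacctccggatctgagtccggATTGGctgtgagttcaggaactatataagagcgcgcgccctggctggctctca
Tap1: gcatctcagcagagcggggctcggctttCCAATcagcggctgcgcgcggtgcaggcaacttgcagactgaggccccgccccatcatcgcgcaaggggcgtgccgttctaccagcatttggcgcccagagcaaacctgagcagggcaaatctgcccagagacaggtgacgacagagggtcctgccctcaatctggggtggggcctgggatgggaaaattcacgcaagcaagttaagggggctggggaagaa
H2-Aa: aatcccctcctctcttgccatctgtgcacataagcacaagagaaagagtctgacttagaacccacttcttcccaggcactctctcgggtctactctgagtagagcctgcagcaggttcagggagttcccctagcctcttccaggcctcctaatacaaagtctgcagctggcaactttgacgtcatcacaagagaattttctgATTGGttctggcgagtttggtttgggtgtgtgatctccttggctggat
In windows of 250 bases before to 50 after the start, CCAAT was found in 7 of the 8 members, which leaves out Psmb8, and in 37.4% of 32544 promoters. The ISRE core in this exact form was found in B2m alone, 139 bases before its start, and in 3.45% of promoters. Shorter or varied forms of the element were not searched for, so the other members are not read as lacking an ISRE. The letters TTCNNNGAA, a core of the gamma-activated site, were found in Psmb8 alone and in 8.33% of promoters. The windows of Tap1 and Psmb9 overlap by 275 bases on opposite strands, and the CCAAT counted for each of them is the same site.

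Class I genes were abundant in every healthy and MI mouse, and their levels in the groups overlapped. H2-D1 was at 6707.5, 7448, 4157 and 4228 CPM in Healthy 227, 228, 239 and 240 and at 10445, 5746, 8945 and 5191 CPM in MI 244, 250, 255 and 256. Healthy 227 and 228 lay above MI 250 and 256, so that the groups overlapped (log2 fold change 0.33 ± 0.26 SE; edgeR adjusted p = 0.352). H2-K1, the other classical heavy chain, was at 2625.5, 2428, 1355 and 1701 CPM in the healthy and 3367, 2019, 2667 and 1861 CPM in the MI mice (log2 fold change 0.19 ± 0.24 SE; edgeR adjusted p = 0.554). B2m, the light chain that both need, was at 7647, 5971, 3532 and 4185 CPM in the healthy and 8117, 6447, 6589 and 5701 CPM in the MI mice (0.24 ± 0.22; adjusted p = 0.426). Healthy 239 and 240 were the 2 lowest mice for both heavy chains and for B2m.

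The genes that supply peptides to class I overlapped between the groups and were not called. Tap1 was at 181, 122, 51.9 and 66.2 CPM in the healthy and 177, 116, 118.5 and 91.2 CPM in the MI mice (log2 fold change 0.17 ± 0.36 SE; edgeR adjusted p = 0.738). Psmb8 was at 672, 578.5, 318 and 333 CPM and at 567, 439, 520.0 and 450.5 CPM (-0.04 ± 0.23; adjusted p = 0.918). Psmb9 was at 401, 362, 175 and 175 CPM and at 314, 211, 244 and 235 CPM (-0.24 ± 0.28; adjusted p = 0.525). For all 3 genes the healthy mice split into a higher pair (227 and 228) and a lower pair (239 and 240), and the MI mice lay inside the healthy range. Of the 6 class I and processing members, 0 were called by edgeR (adjusted p under 0.05), 0 had an unadjusted p under 0.05, and DESeq2 called 0 as well, against 16.9% of all 12193 tested genes called higher and 16.8% called lower. The sign of the small Psmb8 and Tap1 differences turned when single mice were left out, and that of Psmb8 also turned when total UMIs replaced TMM scaling.

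**Figure D1:**
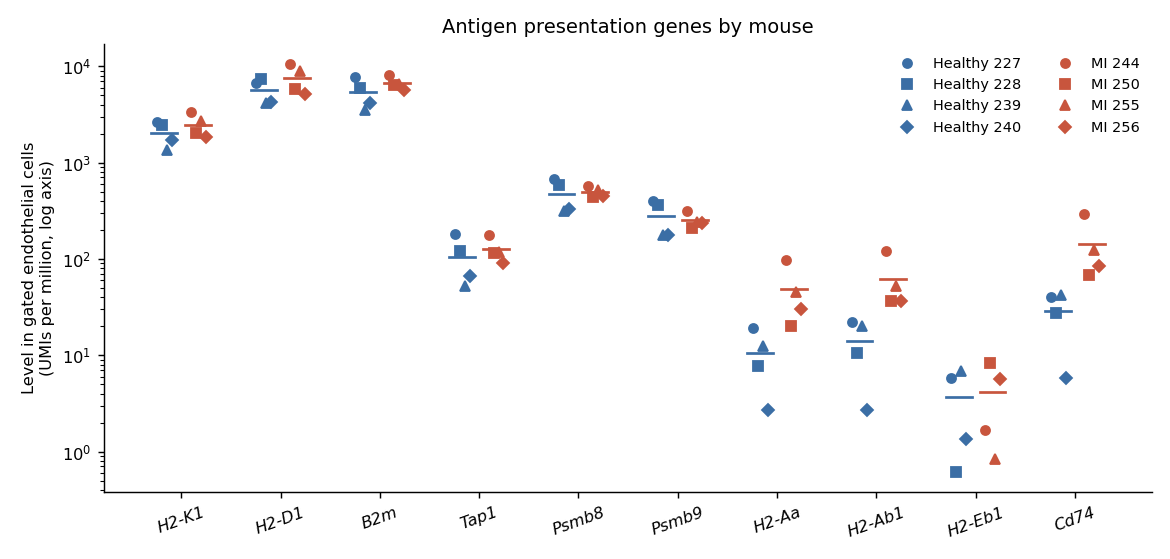
Level of each antigen presentation gene in gated EC of each mouse (CPM, log axis); points are mice, with blue for healthy and red for MI, and lines are group means. The groups overlap for H2-K1, H2-D1, B2m, Tap1, Psmb8, Psmb9 and H2-Eb1, while all MI mice lie above all healthy mice for H2-Aa, H2-Ab1 and Cd74.

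Other genes of the class I pathway gave few calls. Of 14 class I heavy chain genes tested, 0 were called higher and 2 lower, and the median log2 fold change was -0.26, against -0.02 over all genes tested, of which 16.9% were called higher and 16.8% lower. The 2 were the non-classical genes H2-T24 (23.96 ± 11.6 CPM in healthy and 10.2 ± 0.896 CPM in MI mice; SD, n = 4 each; edgeR adjusted p = 0.00926) and H2-Q1 (29.4 ± 29.8 and 6.52 ± 1.70 CPM; adjusted p = 0.0279), of which H2-Q1 overlapped between the groups and was highest in Healthy 228, at 70.3 CPM. Near-identical copies make the counts of single H2-Q and H2-T genes uncertain. Of 8 genes for loading peptide onto class I, the chaperone Canx was called higher (159 ± 18.5 and 227 ± 32.7 CPM; adjusted p = 0.0172) and the tapasin-related Tapbpl lower (68.2 ± 8.49 and 55.7 ± 7.38 CPM; adjusted p = 0.0364). Of 5 immunoproteasome genes 0 were called, with a median of -0.24, and of 3 subunits of the constitutive proteasome 1 was called higher, Psmb7 (146 ± 4.23 and 182 ± 10.8 CPM; adjusted p = 0.0279).

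The class II genes H2-Aa and H2-Ab1 and the invariant chain gene Cd74 were counted 4.43 to 4.87 times as often in gated EC of MI as of healthy mice, at levels far under those of class I. Cd74 was at 40.4, 27.4, 42.6 and 5.87 CPM in Healthy 227, 228, 239 and 240 and at 291, 68.2, 123 and 84.9 CPM in MI 244, 250, 255 and 256. H2-Aa was at 19.2, 7.77, 12.4 and 2.73 CPM in the healthy and 97.8, 20.3, 45.4 and 30 CPM in the MI mice. H2-Ab1 was at 22.03, 10.6, 20.2 and 2.73 CPM and at 121, 36.9, 51.7 and 36.9 CPM. All MI mice lay above all healthy mice for these 3 genes, with MI 244 highest and Healthy 240 lowest. By edgeR the log2 fold change was 2.20 ± 0.58 SE for Cd74 (adjusted p = 0.0166), 2.12 ± 0.58 for H2-Aa (adjusted p = 0.0189) and 2.06 ± 0.55 for H2-Ab1 (adjusted p = 0.0177). Thus 3 of the 10 members were called higher and 0 lower, beside 16.9% and 16.8% of all genes tested. The other beta chain, H2-Eb1, was at 5.80, 0.613, 6.79 and 1.36 CPM and at 1.69, 8.24, 0.838 and 5.72 CPM and was not called (0.07 ± 0.76; adjusted p = 0.949). The calls leaned on MI 244. Without it the log2 fold change was 1.52 for H2-Aa (edgeR adjusted p = 0.0524), 1.5 for H2-Ab1 (adjusted p = 0.0501) and 1.57 for Cd74 (adjusted p = 0.0457), and without both mice low in Xist Cd74 was at 1.77 (adjusted p = 0.0566).

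Few cells held class II RNA at equal depth, and pericyte-like cells, taken here as the background, held it as well. Whether pericyte-like cells make class II RNA themselves was not tested. In cells thinned to 1000 UMIs, 2.07% ± 1.48 of healthy and 8.78% ± 5.27 of MI gated cells held a UMI of Cd74 (SD, n = 4 mice each), with 0.616% to 4.08% in the healthy and 4.77% to 16.4% in the MI mice. The shares were 1.19% and 4.996% for H2-Ab1 and 0.891% and 3.64% for H2-Aa. All MI mice lay above all healthy mice, which gives p = 0.0286 for each by a two-sided exact permutation test, the smallest that 4 against 4 mice allow, and 0.0952 after Benjamini-Hochberg adjustment over the 10 members. Without thinning the Cd74 shares were 4.55% and 30.6%, and 483 healthy and 0 MI cells were too shallow to thin. In all pericyte-like cells, inside the gate or not (median 4143 UMIs in 213 healthy and 5770 UMIs in 216 MI cells), the Cd74 share at the same thinned depth came to 6.25% (healthy) and 6.94% (MI), and that of H2-Aa to 3.37% and 4.63%. The healthy EC shares and the MI share of H2-Aa were under this background and are not read as expression, although H2-Aa in MI 244 (6.68%) lay above it. The mean MI shares of Cd74 and H2-Ab1 lay above it (pericyte-like H2-Ab1 3.70%), but by mouse this held in MI 244 and 255 and not in MI 250 (Cd74 5.78%, H2-Ab1 3.51%) or MI 256 (4.77% and 2.66%). The pericyte-like reference was not cleared of cells with a UMI of C1qa or Ptprc, as the EC were, and it pooled all mice of a group. Pericyte-like cells inside the gate (22 to 51 a mouse) can be compared by mouse. Their Cd74 was at 273, 136, 179 and 96.3 CPM in MI 244, 250, 255 and 256. All gated cells were at 291, 68.2, 123 and 84.9 CPM. In MI 255 their H2-Ab1 (92.2 against 51.7 CPM) was also the higher, while in MI 244 it was the lower (57.1 against 121 CPM). H2-Aa in MI 244 was at 101.5 against 97.8 CPM.

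C1qa-positive macrophages served as the reference for free macrophage RNA in the droplets. These held a UMI of C1qa and of C1qb or C1qc and 0 of Cdh5 and Kdr, so they were chosen partly by the genes used for scaling. There were 384 such cells, with 7, 0, 17 and 9 in Healthy 227, 228, 239 and 240 and 84, 53, 176 and 38 in MI 244, 250, 255 and 256. Their Cd74 level was 37374, 22590.5 and 3439 CPM in Healthy 227, 239 and 240 and 23887, 12886, 9554 and 9117 CPM in MI 244, 250, 255 and 256. C1qb and C1qc, subunits of complement C1q made by macrophages, together stood at 10244 to 13780 CPM in these cells and at 1.82 to 25.3 CPM in gated EC of healthy and 56.9 to 91.1 CPM in those of MI mice. If all C1qb and C1qc in gated EC came with macrophage RNA of the same mouse, that RNA would carry 170, 89.1, 82.5 and 43.8 CPM of Cd74 in MI 244, 250, 255 and 256. Beside the observed levels, this is 58.3%, 131%, 67.2% and 51.6%. In Healthy 227, 239 and 240 it would carry 16.5%, 112% and 34.8% of the observed Cd74, on references of 7, 17 and 9 cells. With any cell holding a C1qa UMI as the reference, the mean carried part was 73.3% in the MI mice. The gate itself removes cells with a C1qa UMI and so lowers C1qb and C1qc. With C1qa left out of the gate, the carried Cd74 was 80.5% to 139.5% of the observed level in the MI mice and 117% to 290.2% in those 3 healthy mice. For class I the carried part was under 1% on average, at 0.577% for H2-K1, 0.698% for H2-D1 and 0.650% for B2m in MI mice. With any cell holding a C1qa UMI as the reference it was 2.35% to 3.65% for these 3 genes over the MI mice. By the C1qa-positive macrophages and the full gate, the carried H2-Ab1 was 35.2%, 76.2%, 41.1% and 27.5% of the observed level in MI 244, 250, 255 and 256. That of H2-Aa was 65.9%, 151%, 65.6% and 37.1%. Cd74, H2-Aa, H2-Ab1 and the summed C1qb and C1qc were all higher in every MI than in every healthy mouse. Within the MI group they did not run in step. MI 250 held more C1qb and C1qc than MI 244 (84.2 and 80.2 CPM) but less Cd74 (68.2 and 291 CPM). The part of macrophage RNA in the class II difference cannot be told apart over whole mice.

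**Figure D2:**
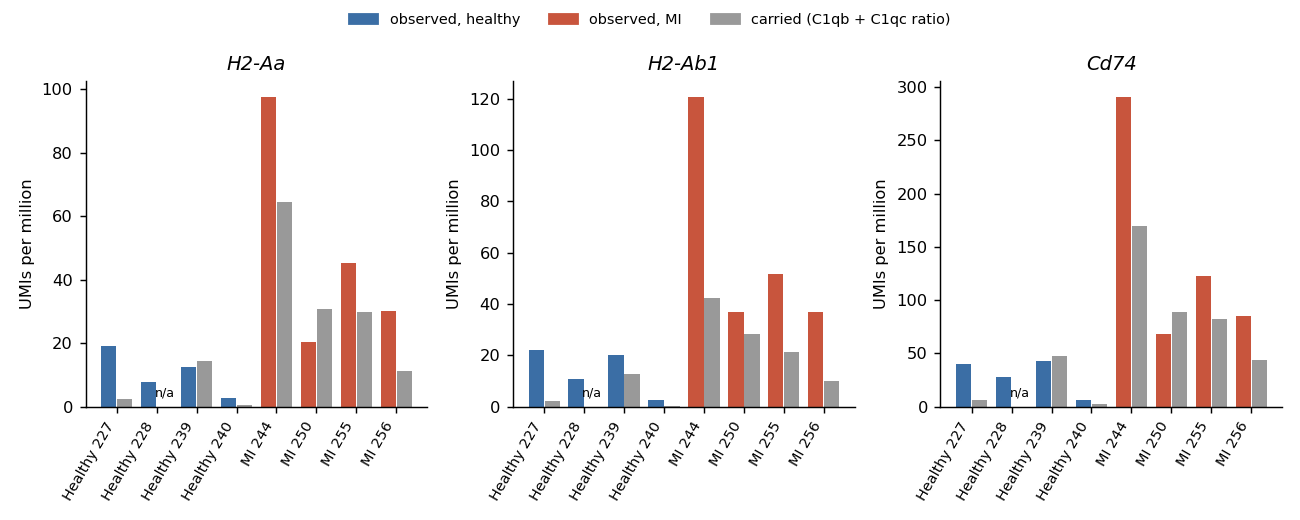
Observed level of H2-Aa, H2-Ab1 and Cd74 in gated EC of each mouse (coloured bars, CPM) and the level that macrophage RNA would carry, scaled from C1qb and C1qc in the gated cells and the macrophages of the same mouse (grey bars; Healthy 228 had 0 macrophages by the rule, marked n/a). The carried Cd74 exceeds the observed level in Healthy 239 and MI 250, and is 51.6% to 67.2% of it in MI 244, 255 and 256.

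Of 5 genes that process class II peptides, 3 were called higher after MI by edgeR and 0 lower, beside 16.9% and 16.8% of all genes tested. Ctsl, the gene of cathepsin L, at 483 and 421 CPM (adjusted p = 0.0569), and Ifi30, a lysosomal thiol reductase gene, at 7.77 and 9.36 CPM (adjusted p = 0.628), were not called. The protease gene Ctss rose from 1.67 ± 1.39 to 30.9 ± 13.7 CPM (SD, n = 4 mice each; log2 fold change 4 ± 0.47 SE, adjusted p = 0.000549). Lgmn, which encodes the asparaginyl endopeptidase legumain, rose from 21.0 ± 4.69 to 130 ± 55.6 CPM (2.52 ± 0.29, adjusted p = 0.000488), and Ctsb, the gene of cathepsin B, from 272 ± 9.42 to 575 ± 86.9 CPM (0.99 ± 0.10, adjusted p = 0.000321). The share that macrophage RNA would carry differed between them. For Ctss it was 74.1% to 135% of the observed level in the MI mice, for Lgmn 7.88% to 11.6% and for Ctsb 4.57% to 6.79%. Of the class II accessory genes, H2-DMa (2.70 ± 1.80 and 7.92 ± 6.68 CPM; adjusted p = 0.088) and H2-DMb1 (2.30 ± 2.16 and 8.02 ± 7.84 CPM; adjusted p = 0.106), which load peptide onto class II, did not pass. Of 6 class II genes tested, 3 were called higher, all members, with a median log2 fold change of 1.90.

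Of 15 regulators of both pathways tested, 1 was called higher and 3 lower after MI, beside 16.9% and 16.8% of all genes tested. Irf1, an interferon-induced activator of class I genes, fell from 204 ± 21.8 to 156 ± 12.7 CPM (SD, n = 4 mice each; edgeR adjusted p = 0.00738). By class, Irf1 was at 272 ± 26.2 CPM in healthy and 277 ± 24.5 CPM in MI stress-response-like cells, the largest class, and at 166 ± 28.1 and 118 ± 12.8 CPM in capillary-like cells, so the fall was not seen in each class, and class shares differed between the groups. Its relative Irf2 fell from 150 ± 11.7 to 99.9 ± 3.02 CPM (adjusted p = 0.000443), and Rfxap, a subunit of the RFX complex that binds MHC promoters, from 53.0 ± 8.51 to 31.7 ± 3.94 CPM (adjusted p = 0.00227). All healthy mice lay above all MI mice for these 3 genes. Irf8, which macrophages also express, was called higher (12.2 ± 0.949 and 27.7 ± 13.6 CPM; adjusted p = 0.0303), although MI 256, at 11.2 CPM, lay under all healthy mice. Nlrc5, the transactivator of class I, was at 11.4 and 11.1 CPM and was not called. Ciita, at 0.489 CPM in healthy and 0.618 CPM in MI mice, was too low to test.

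Gated EC fell into 8 endothelial classes by their markers, clustered without the antigen presentation genes. These were capillary-like (5281 cells), stress-response-like (5306), arterial-like (3065), Apln-type-like (2774), venular-like (1794), interferon-like (1606), venous-like (1530) and cell-cycle-like cells (1236). Class names were rebuilt from marker lists, and some clusters raised markers of more than 1 list. The venous-like cluster raised 5 of 6 venous markers (Nr2f2, Vcam1, Vwf, Fmo2 and Cysltr1). It also raised the matrix genes Col5a2, Hmcn1 and Mgp, and Tmem108 and Cytl1, from an endocardial list, were among its leading genes. The venular-like cluster raised 6 of 6 Ackr1 venular and 5 of 5 Plvap markers. Levels below are means over mice with at least 20 cells in a class, without a test between classes. Class I and processing genes were found in every class, with Psmb8, Tap1 and H2-D1 highest in interferon-like and H2-K1 in cell-cycle-like cells. Psmb8 was at 867 CPM in healthy and 913 CPM in MI interferon-like cells, above the next class, arterial-like cells (541 and 558 CPM), in 8 of 8 mice. Tap1 was also highest in interferon-like cells, at 198 and 265 CPM, again above the next class in every mouse. In MI mice cell-cycle-like cells came next for Tap1 (175 CPM) and venular-like cells were lowest (89.2 CPM). H2-D1 was highest there too (6634 and 9159 CPM) and lowest in venular-like cells of MI mice (6459 CPM). In the 3 healthy mice with enough cells of both classes, H2-D1 was lower in Apln-type-like (5278, 3825.5 and 3769 CPM in 227, 239 and 240) than in cell-cycle-like cells (5750.1, 4128 and 3930.2 CPM). H2-K1 was highest in cell-cycle-like cells, at 2610 CPM in healthy mice and 3169 CPM in MI mice, where it lay above interferon-like cells in 3 of 4 mice. Most other neighbours in these orders changed places between mice, and these levels are a description of the classes.

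Class II levels followed another order, with the highest Cd74 mean in venous-like and the next in arterial-like cells. This order held in 0 of 4 MI mice. In healthy mice Cd74 was at 183, 75.3, 62.6 and 14.0 CPM in venous-like cells of mice 227, 228, 239 and 240, and at 12.65, 18.9, 43.0 and 4.71 CPM in capillary-like cells. Venous-like cells lay above arterial-like cells (83.8, 35.1, 56.2 and 12.1 CPM) in 4 of 4 healthy mice. Arterial-like cells lay above the next class, interferon-like cells, in 4 of 4, although in Healthy 240 both round to 12.1 CPM. In MI mice Cd74 in venous-like cells was at 650, 70.3, 103 and 71.2 CPM in 244, 250, 255 and 256, and lay above arterial-like cells (239, 114.5, 131 and 129 CPM) in 1 of 4 mice. The venous-like mean of 224 CPM lay above 3 of these 4 mice. Capillary-like cells of MI mice were at 164, 50.3, 103 and 40.9 CPM. The macrophage gene C1qb did not follow this order: in MI mice it was at 51.8, 63.1, 60.95 and 37.9 CPM in venous-like and 60.05, 78.2, 61.6 and 46.8 CPM in capillary-like cells. H2-Aa, H2-Ab1, H2-Eb1 and Cd74 summed to 484, 188, 142 and 38.5 CPM in venous-like cells of Healthy 227, 228, 239 and 240 and to 30.5, 31.1, 72.2 and 9.43 CPM in capillary-like cells. C1qb and C1qc summed to 2.104, 0, 17.1 and 10.5 CPM and to 1.86, 3.38, 33 and 9.86 CPM there, on 0 to 6 UMIs a mouse in the venous-like cells. Healthy 227 was thus the highest mouse in venous-like class II and Healthy 239 in capillary-like class II and in C1q. Macrophage RNA scaled to C1qb and C1qc would carry 94.7 ± 54.2 CPM of Cd74 in arterial-like cells of MI mice, under the observed 153.5 ± 57.6 CPM (SD, n = 4), and the observed level was the higher one in 4 of 4 mice. In MI mice the observed Cd74 was above the carried level in 3 of 4 mice in venous-like, Apln-type-like, venular-like and interferon-like cells, in 2 of 4 in cell-cycle-like cells and in 1 of 4 in capillary-like and in stress-response-like cells. The venous-like exception was MI 250, at 70.3 CPM observed and 106.5 CPM carried. Pericyte-like cells inside the gate were at 171 ± 75.7 CPM of Cd74 in MI mice (SD, n = 4; 22 to 51 cells a mouse), which is above the mean of every endothelial class except venous-like cells. In the same 4 mice C1qb was at 49.9 ± 12.4 CPM in the pericyte-like cells.

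**Figure D3:**
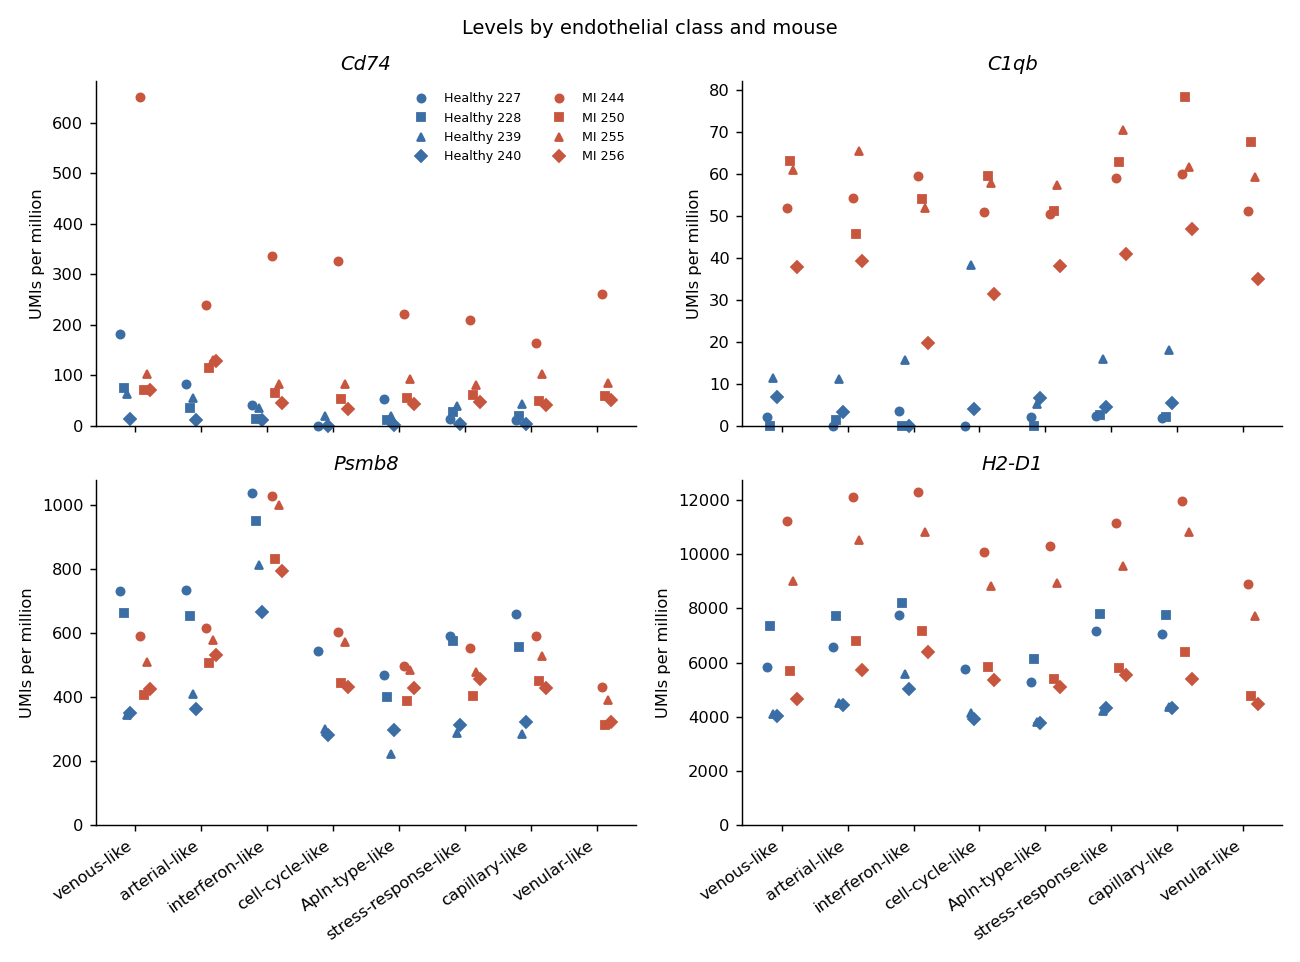
Levels of Cd74, the macrophage gene C1qb, Psmb8 and H2-D1 in 8 endothelial classes (CPM; points are mice with at least 20 gated cells of a class, blue for healthy and red for MI; venular-like cells had too few healthy cells). Cd74 is highest in venous-like cells of Healthy 227 (183) and MI 244 (650), C1qb shows no such peak, and Psmb8 peaks in interferon-like cells of all mice.

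Within single classes, class II was again the part of the pathway that was called. In stress-response-like cells, the largest class, 3 of 9 members tested were called higher by edgeR, beside 6.14% of all genes, with a log2 fold change of 2.79 ± 0.58 SE for H2-Aa (adjusted p = 0.00718). The same 3 genes were called in arterial-like cells (H2-Ab1 at 2.07 ± 0.33, adjusted p = 0.00106; 5.05% of genes called higher) and in capillary-like cells (H2-Ab1 at 2.20 ± 0.49, adjusted p = 0.0205; 2.36%). Mean C1qb went from 6.37 to 58.3 CPM in stress-response-like, 4.02 to 51.3 CPM in arterial-like and 6.91 to 61.7 CPM in capillary-like cells. In MI mice, mean carried Cd74 was above the observed level in stress-response-like (109.8 against 99.6 CPM) and capillary-like cells (106.9 against 89.5 CPM). In arterial-like cells it was under it (94.7 against 153.5 CPM). The part of macrophage RNA in the calls within classes was not tested. In Apln-type-like cells H2-Ab1 (2.20 ± 0.61, adjusted p = 0.0379) and Cd74 (2.40 ± 0.66, adjusted p = 0.0353) were called, beside 3.29% of genes. The B cell and plasma cell genes Igkc, Jchain and Ighm are among the 10 leading genes of the Apln-type-like cluster, and their part in these calls was not tested. In interferon-like cells Cd74 alone was called (2.18 ± 0.65, adjusted p = 0.043), beside 4% of genes. In venous-like cells 0 of 9 were called (3.96% of genes), with Cd74 at 1.19 ± 0.71 (adjusted p = 0.314), and H2-Aa and H2-Ab1 each had an unadjusted p above 0.39. In cell-cycle-like cells 0 of 9 were called (0.54% of genes), although Cd74 had an unadjusted edgeR p of 0.00955, on 27 to 38 cells per healthy mouse. DESeq2 was not run within classes. The 6 class I and processing members gave 0 calls in each of the 7 classes, with log2 fold changes from -0.32 to 0.68. Before adjustment the edgeR p was under 0.05 for H2-D1 in arterial-like (0.0345), Apln-type-like (0.0154) and cell-cycle-like cells (0.00379), for B2m in the latter 2 classes (0.0303 and 0.0405) and for Tap1 in cell-cycle-like cells (0.0219). Which class II genes were called in capillary-like, Apln-type-like and interferon-like cells depended on single mice: the number ranged from 0 to 3 in each as mice were left out. In capillary-like cells it was 0 without MI 244 and 1 without MI 250 or MI 255. In Apln-type-like cells it was 0 without Healthy 228, 239 or 240 and 1 without MI 255. In interferon-like cells it was 0 without any 1 healthy mouse, 3 without MI 250 and 2 without MI 256.

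The MI effect was then compared between classes, each against stress-response-like cells within the same mice. Of all members in the 6 classes that could be compared, 1 was called, H2-Aa in venous-like cells, whose effect was lower by 2.08 ± 0.44 SE on the log2 scale (difference -2.08; edgeR adjusted p = 0.0107; 0.689% of genes called in either direction). H2-Aa in venous-like cells was at 126, 51.1, 25.6 and 7.00 CPM in Healthy 227, 228, 239 and 240 and at 233, 30.2, 49.6 and 23.1 CPM in MI 244, 250, 255 and 256, so the groups overlapped. In stress-response-like cells it was at 3.58, 4.43, 9.13 and 0.917 CPM and at 68.7, 19.4, 32.9 and 15.02 CPM, without overlap. This call was lost without Healthy 227 (-1.31, adjusted p = 0.496) and without Healthy 228 (-1.99, adjusted p = 0.0596). H2-Ab1 and Cd74 had differences of the same sign that did not pass (-1.38 ± 0.37, adjusted p = 0.078; -0.93 ± 0.38, adjusted p = 0.413). In the other comparisons 0 members were called: in capillary-like cells beside 0.963% of genes, in arterial-like cells beside 1.08%, in Apln-type-like cells beside 3.73%, in interferon-like cells beside 0.411% and in cell-cycle-like cells beside 2.19%.

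A small number of EC held much class II RNA. Of 22592 gated cells in the endothelial classes, 16038 held 0 UMIs of H2-Aa, H2-Ab1, H2-Eb1 and Cd74 together, 4027 held 1 UMI and 193 (0.854%) held 10 or more, a limit that was set after the values were seen. There were 36 cells at 10 or 11 UMIs and 52 at 8 or 9. The 193 cells held 32.4% of all class II and Cd74 UMIs. They were 16, 5, 1 and 0 cells in Healthy 227, 228, 239 and 240 and 135, 10, 12 and 14 cells in MI 244, 250, 255 and 256, so that Healthy 227 and MI 244 held most of those in their groups. The 0 of 3007 cells in Healthy 240 allow a share of up to 0.123% (exact Clopper-Pearson interval). With these cells left out, class II and Cd74 together were at 43.2, 28.0, 79.2 and 12.1 CPM in the healthy and 281, 113, 159 and 92.7 CPM in the MI mice, so the groups still did not overlap. Among venous-like cells, 14 of 402 healthy (3.48%) and 40 of 1128 MI cells (3.55%) were class II-rich, with 10 of the 14 from Healthy 227 and 34 of the 40 from MI 244. Arterial-like cells held 4 of 1448 (0.276%) and 32 of 1617 (1.98%), spread as 13, 4, 5 and 10 cells over MI 244, 250, 255 and 256. In MI 250, 255 and 256, the share was lower in venous-like cells (2 of 306, 2 of 346 and 2 of 248) than in arterial-like cells (4 of 403, 5 of 338 and 10 of 489). Capillary-like cells held 0 of 4218 and 1 of 1063.

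**Figure D4:**
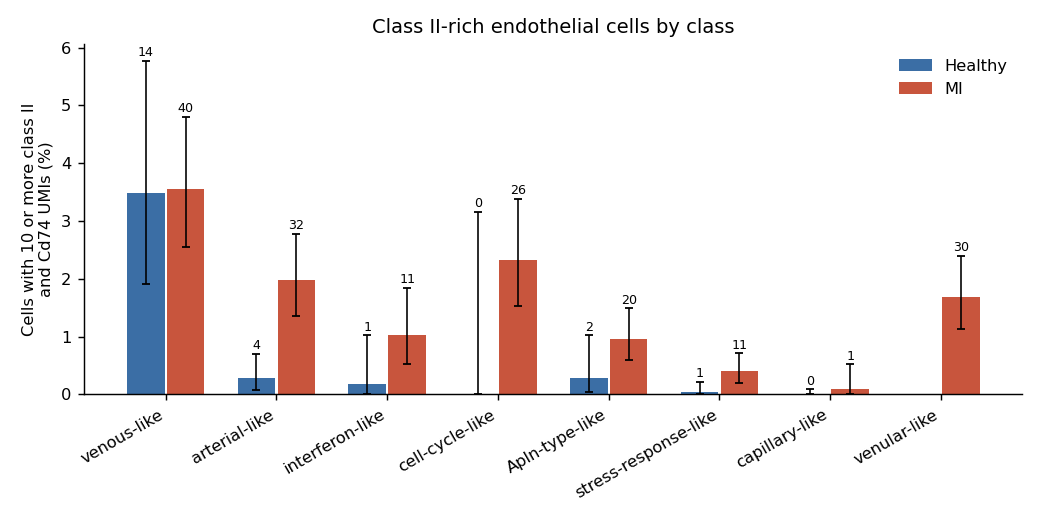
Share of gated cells with 10 or more UMIs of H2-Aa, H2-Ab1, H2-Eb1 and Cd74 in each endothelial class (bars; lines are 95% exact binomial intervals, which cover counting error over pooled cells only; the number over each bar counts its cells; classes with under 20 cells in a group are not drawn). Pooled over mice, the share is highest in venous-like cells, at 3.48% (healthy) and 3.55% (MI, 34 of 40 cells from MI 244), and 0 of 4218 healthy capillary-like cells reach it.

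The class II-rich cells held other genes of the class II pathway beside endothelial genes. Pecam1 was at 937 CPM in them and 916 CPM in cells of the same class and mouse with 0 class II UMIs, and Tie1 at 352 and 381 CPM. Cdh5 (825 against 1081 CPM, fixed in part by the gate) and Kdr (343 against 518.5 CPM) had lower levels in them. H2-DMa was at 120 CPM in them, against 7.68 CPM, and H2-DMb1 at 138 against 5.54 CPM. Ciita was found in 11 of the 193 cells and in 13 of all 16038 cells with 0 class II UMIs, which were not matched for class, mouse or depth. Against cells of the same class and mouse its level was 7.80 against 0.835 CPM. Cxcl9, an interferon-gamma-induced chemokine gene, stood at 602 against 137 CPM. H2-K1 differed less, at 3795 against 2875 CPM. C1qb was at 57.4 against 47.4 CPM and Lyz2 at 133 against 129 CPM, close to the level of their neighbours. Flt3, Itgax and Cd209a were at 0 in the 193 cells, where 3 UMIs is the floor, 2 cells held a UMI of Ccr7, and Zbtb46 was found in 37 (31.2 against 34.4 CPM). Of the B cell genes, 6 cells held a UMI of Cd79a, Cd79b or Ms4a1, with Cd79a at 17.02 against 1.29 CPM, and 18 held a UMI of Igkc (74.4 against 10.6 CPM). A UMI of C1qb or C1qc was found in 40.9% of them, against 12.6% of the cells with 0 class II UMIs. The cells had a median of 6385 UMIs, against 2599 in cells with 0 class II UMIs. A fixed number of UMIs is reached more easily in deeper cells, and the part of depth or of pairs of cells in 1 droplet was not tested.

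H2-Eb1 was nearly missing in 3 of the 8 mice. Among UMIs of H2-Eb1 and H2-Ab1 together in the leukocyte clusters, H2-Eb1 made up 35.3%, 31.9% and 29.2% in Healthy 227, 239 and 240 and 29.0% and 29.2% in MI 250 and 256. In Healthy 228, MI 244 and MI 255 it made up 4.92%, 1.88% and 1.55% (95% exact binomial intervals 2.27 to 9.13, 1.65 to 2.14 and 1.30 to 1.83). The gated EC of these 3 mice also had the lowest shares, at 5.455%, 1.38% and 1.60%, against 13.4% to 33.3% in the others. The same 3 mice had the highest H2-D1 level of their group in leukocyte clusters, at 5736, 8831 and 9129 CPM against 3563 to 4258.5 CPM in the other healthy and 5779.5 to 5833 CPM in the other MI mice, and also in gated EC. The reads were counted against 1 reference genome, and whether the mice differ in their alleles of the MHC region was not tested. Fold changes of H2-Eb1 and H2-D1 between the groups rest on this mixture of mice.

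**Figure D5:**
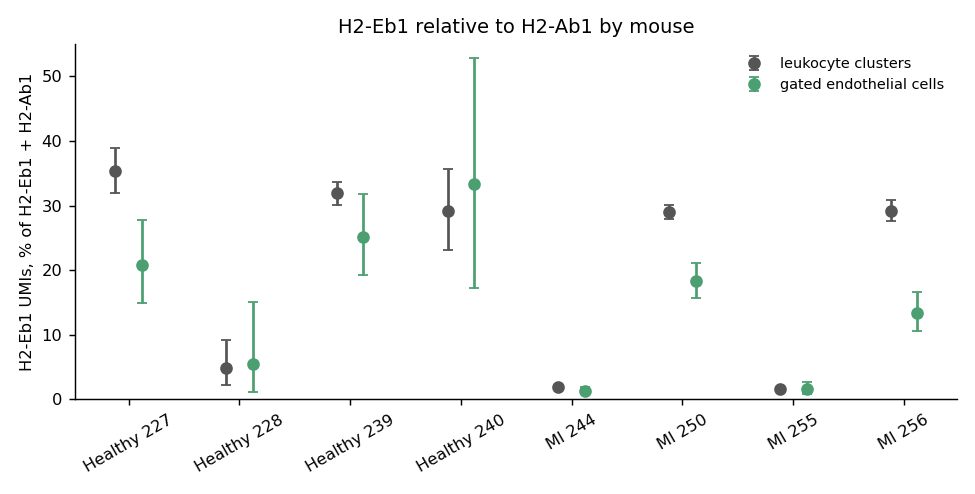
H2-Eb1 UMIs as a percentage of H2-Eb1 and H2-Ab1 UMIs in leukocyte clusters (grey) and gated EC (green) of each mouse; points are mice and lines are 95% exact binomial intervals, for counting error only. Healthy 228, MI 244 and MI 255 lie between 1.38% and 5.46%, the other mice at 13.4% or more.

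Across 59 profiles of a class in a mouse, which share their libraries and depth, the genes whose levels were most like those of a member outside the pathway lists were as follows. For Psmb8 they were the guanylate-binding protein genes Gbp3 (Pearson r = 0.949), Gbp2 (0.900), Gbp7 (0.892) and Gbp4 (0.882) and the interferon-induced GTPase gene Ifi47 (0.886). For H2-K1 they were Denr (0.865), BC023719 (0.736), Mlkl (0.684), Tor1aip2 (0.656) and Itgb1 (0.652), and for Cd74 Capg (0.735), Capns1 (0.735), Adam15 (0.722), Rab28 (0.704) and Eno1 (0.698). Among the members, Cd74 went with H2-Ab1 (r = 0.965) and H2-Aa (r = 0.953) but less with H2-Eb1 (r = 0.238). These correlations are descriptions over classes and mice and were not tested.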

How the data were processed

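The authors deposited 1 table of UMI counts, whole numbers without normalization, for 16791 genes in 31028 cells of 8 mice. Per the labels and the methods, reads were aligned to mm10 by Cell Ranger and cells handled in Seurat 2.3 under R 3.5.2. Cells under 400 genes or over 20% mitochondrial UMIs had been dropped. The strand setting of the counting was not given in the sources used here.

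The members and lists were chosen with earlier results of these data known. A cell was a copy, and counted once, if another mouse held its barcode and their UMIs matched by 90% or more of the lesser total. Cells were clustered with Seurat 5.3.0 (R 4.3.3; 32 principal components, resolution 0.6) on 386 variable genes, of which 9 antigen presentation genes were left out, and classes were named from marker lists. No doublet caller was run here. UMIs were summed per mouse over gated cells, or over a class with at least 20 cells a mouse in at least 3 mice a group. Sums, from 4890029 to 18559274 UMIs a mouse, were tested with edgeR 4.0.16 (TMM, filterByExpr, quasi-likelihood test, Benjamini-Hochberg adjusted p under 0.05), which was tested on simulated data. The standard error is the log2 fold change divided by the root of F. Differences between classes were tested as an interaction with the mouse as block. Shares of cells used cells thinned to 1000 UMIs and an exact permutation test over 70 regroupings (scipy 1.17.1). Correlations used log2 of CPM after 20 were added. The text names the 10 members, the called genes of the lists, and 5 genes most like H2-K1, Psmb8 and Cd74; other genes were chosen after their values were seen. Pericyte-like and macrophage cells were references only. Coordinates are those of GENCODE vM21 (GRCm38). Alternatives were DESeq2 1.42.0, other scaling, filters, gates, depths and clusterings, and each mouse left out. Intervals cover counting error only.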

Additional observations from a re-analysis of the deposited data

Results flagged for a closer look

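The MI effect on H2-Aa differed between venous-like and stress-response-like cells, with a difference of -2.08 on the log2 scale by the interaction term (edgeR adjusted p = 0.0107). H2-Aa went from a mean of 52.5 to 84.04 CPM in venous-like and from 4.51 to 34 CPM in stress-response-like cells, while the macrophage gene C1qb went from 5.12 to 53.5 CPM and from 6.37 to 58.3 CPM. The mean Cd74 of stress-response-like cells in MI mice, 99.6 CPM, was under the 109.8 CPM that macrophage RNA would carry. The part of macrophage RNA in the difference was not tested. The difference was -1.31 without Healthy 227 (adjusted p = 0.496) and between -2.94 and -1.31 with each mouse left out in turn. Healthy 227 held 10 of the 14 class II-rich venous-like cells of the healthy group. Whether these cells set the difference was not tested.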

How the results depend on the processing

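No paired analysis was possible because healthy and MI mice carry different numbers and share no litter, batch or day in the labels. The 3 class II calls in all gated EC held under all alternatives run except with MI 244 left out, where 1 was called, and without both mice low in Xist, chosen after seeing the data, where 2 were called. With each mouse left out, 1 to 3 were called there, 0 to 3 in each of capillary-like, Apln-type-like and interferon-like cells, and the H2-Aa interaction lay between -2.94 and -1.31. The 6 class I and processing members gave 0 calls under all 21 alternatives. The log2 fold change of Psmb8 turned to 0.06 with total UMI scaling, 0.05 without any immune marker UMI, 0.01 in the largest class and 0.09 without both mice low in Xist, and lay between -0.19 and 0.17 with each mouse left out. That of H2-Eb1 was -0.06 without any immune marker UMI and -0.53 to 0.57 with mice left out, and that of Tap1 -0.06 to 0.56. Differences in thinned shares lay between -1.05 and 5.435 points for Psmb8, -4.43 and 1.21 for Psmb9 and -0.03855 and 0.213 for H2-Eb1, which was at -0.00178 when 2 UMIs were asked for. The Cd74 that macrophage RNA would carry was 54.4% of the observed level in healthy mice and 176% with C1qa left out of the gate (76.9% and 107% in MI mice). The causes were not tested. Of 461 alternative values 400 kept their direction and side of the threshold. Depth limits H2-Eb1, with 3 to 153 UMIs a mouse, and left Ciita untested.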

Other observations

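Genes of costimulatory and inhibitory ligands for T cells were mostly low. Of 5 tested, 3 were called higher by edgeR after MI, beside 16.9% of all genes tested. Cd40 rose from 17.6 ± 4.38 to 29.7 ± 3.27 CPM (SD, n = 4 mice each; adjusted p = 0.0102), Icosl from 2.91 ± 0.514 to 5.43 ± 0.479 CPM (adjusted p = 0.00921) and Cd276, which encodes the B7-H3 protein, from 1.36 ± 0.425 to 9.61 ± 1.95 CPM (adjusted p = 0.00026). All MI mice lay above all healthy mice for these genes. The inhibitory ligand genes Cd274 (54.8 and 28.6 CPM; adjusted p = 0.117) and Vsir (61.98 and 63.5 CPM; adjusted p = 0.824) were not called. Vsir was the highest gene of the list in both groups. The classical B7 genes Cd80 and Cd86 were at 0 and 0.151 CPM in healthy and 0.208 and 0.998 CPM in MI mice, too low to test.

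Interferon-induced GTPase genes split by mouse much as Psmb8 did. The genes Tgtp1, Tgtp2, Iigp1, Igtp and Gbp2 summed to 1712 and 1317 CPM in Healthy 227 and 228, to 378.5 and 467 CPM in Healthy 239 and 240 and to 607 to 1202 CPM in the MI mice. Of these 5 genes, Tgtp1 and Tgtp2, near-identical copies, were called lower after MI by edgeR (adjusted p = 0.0329 and 0.0361), beside 16.8% of all genes tested. The groups overlapped for both. Tgtp1 was at 108, 83.0, 16.3 and 16.65 CPM in Healthy 227, 228, 239 and 240 and at 11.75 to 19.2 CPM in the MI mice. The 8 other interferon-induced genes summed to 828 to 1533 CPM in the healthy and 1253 to 1960 CPM in the MI mice. Rsad2, Ifit2, Ifit3, Ifit3b and Cxcl10 were also higher in Healthy 227 and 228 than in 239 and 240. Rsad2 was at 452, 366, 184 and 215 CPM in these mice. Ifit1, Usp18 and Isg15 did not split this way, with Isg15 at 437, 315.5, 274 and 354 CPM in Healthy 227, 228, 239 and 240. Of these 8, Cxcl10 was called higher (log2 fold change 2.47 ± 0.30 SE, adjusted p = 0.000567), as was Usp18 (0.64 ± 0.18, adjusted p = 0.0241), beside 16.9% of all genes tested. Cxcl10 was at 10.9 to 17.8 CPM in the healthy and 43.7 to 114 CPM in the MI mice.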
